A study of Mus musculus with 31 samples.

Results

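The folding machinery of the endoplasmic reticulum (ER) was followed through 10 of its genes in ribosome-protected fragments (RPF, the stretches of mRNA shielded by a ribosome) and in total RNA. The genes were chosen by name, as chaperones, co-chaperones and disulfide isomerases of the ER lumen: Hspa5, Hsp90b1, Hyou1, Pdia3, Pdia4, Pdia6, Calr, Canx, Sdf2l1 and Creld2. Earlier results of these data were known when the choice was made. All 10 of 10 had counts in both tables, among 20704 genes listed for RPF and 24593 for total RNA, and all 10 passed the filter on low counts, as did 9457 and 11708 genes in all.

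The cells were a murine skin squamous cell carcinoma line that carries HRas G12V and an eGFP reporter, with TgfbrII alleles given as floxed (fl/fl) in the sample labels and as deleted in the published methods. The endogenous Eif2s1 alleles had been ablated with CRISPR/Cas9 and replaced by a lentiviral, PGK promoter-driven, myc-tagged cDNA of eIF2α. The replacement was either wild type at serine 51 (S51, able to mount the integrated stress response, ISR) or phospho-dead at that residue (S51A, ISR-null). Both genotypes received the proteasome inhibitor bortezomib at 100 nM or DMSO vehicle for 4.5 h by the sample labels and 4 h by the published methods, which gave 4 groups of 4 lysates with total RNA libraries, and 4 RPF libraries per group but for S51 vehicle, which had 3. Each genotype was represented by selected clones, and the clone behind each library is not given in the sources used here, so clone and genotype cannot be told apart. The replicates are described both as technical and as independent, and p-values therefore measure the spread between these libraries.

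Proteins that enter the ER are folded there by chaperones and by enzymes that form disulfide bonds. When unfolded proteins accumulate, ATF6 and XBP1, the latter spliced by IRE1, activate transcription of chaperone genes through the ER stress response element (ERSE), while PERK phosphorylates eIF2α at serine 51, which lowers general initiation and favours translation of ATF4. BiP, the product of Hspa5, is the central Hsp70 chaperone of the compartment and also holds the stress sensors inactive, and its mRNA is a textbook marker of this response.

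The promoters are shown to give the place of the ERSE in the members. The element is known as one of chaperone genes, so its frequency among the members is a description and not an independent result. RefSeq promoter windows of GRCm38.p6 (the mm10 build of the deposited counts), each from 250 bases before to 49 bases after the annotated start, were at hand for 9 of the 10 members and not for Hyou1. The ERSE was searched on both strands as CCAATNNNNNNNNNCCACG, a CCAAT box and a CCACG box with 9 bases between them. It occurred in 39 of 32851 promoter windows, 0.119% of them, and in 6 of the 9 members, namely Hspa5, Hsp90b1, Pdia6, Calr, Canx and Creld2. The 250 bases before the start of Hspa5 (gene at chr2:34772090-34776529, plus strand), the member with the largest response below, are printed with the letters of the ERSE match in capitals.
Hspa5 promoter, chr2:34771840-34772089, plus strand: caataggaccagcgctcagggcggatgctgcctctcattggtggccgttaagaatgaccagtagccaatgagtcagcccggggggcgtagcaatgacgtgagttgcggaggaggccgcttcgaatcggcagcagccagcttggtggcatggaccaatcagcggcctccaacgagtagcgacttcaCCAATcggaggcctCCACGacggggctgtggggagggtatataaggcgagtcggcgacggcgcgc

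The matches in the other members are given on the strand that reads as the motif, with 10 bases on each side and the CCAAT and CCACG boxes in capitals. Hsp90b1 held the element at 2 places, on opposite strands.
Hsp90b1, chr10:86705628-86705666, minus strand: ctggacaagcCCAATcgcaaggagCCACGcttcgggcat
Hsp90b1, chr10:86705523-86705561, plus strand: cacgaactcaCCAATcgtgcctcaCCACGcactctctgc
Pdia6, chr12:17266481-17266519, plus strand: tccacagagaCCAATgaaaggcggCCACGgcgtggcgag
Calr, chr8:84847065-84847103, plus strand: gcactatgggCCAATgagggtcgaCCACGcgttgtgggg
Canx, chr11:50325790-50325828, minus strand: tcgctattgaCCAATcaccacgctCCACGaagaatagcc
Creld2, chr15:88819510-88819548, minus strand: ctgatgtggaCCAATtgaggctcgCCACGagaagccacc

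Pdia3 and Pdia4 each held the 19-base pattern with another base at its last position, a looser form (CCAATNNNNNNNNNCCACN) that contains the ERSE itself and was present in 0.365% of windows and in 8 of the 9 members. In these windows the letters that match are in capitals, and the base after them is the one that differs.
Pdia3, chr2:121413863-121413901, plus strand: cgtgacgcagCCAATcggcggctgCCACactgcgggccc
Pdia4, chr6:47813592-47813630, plus strand: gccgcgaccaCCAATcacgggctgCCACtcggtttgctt

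The matches began between 212 and 29 bases before the annotated start. Sdf2l1 had neither form within its window. Searches on both strands for ERSE-II (ATTGG and CCACG with 1 base between them, 0.0365% of windows), the unfolded protein response element (TGACGTGG, 0.676%), the core of the CEBP-ATF element (TGATGNAA, 3.97%) and the heat shock element (GAA, TTC and GAA with 2 bases between neighbours, 0.603%) found no match in the 9 member windows. A match describes letters in a window and not a site in use, and the absence of a match says only that these letters were not in this window.

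**Figure D1:**
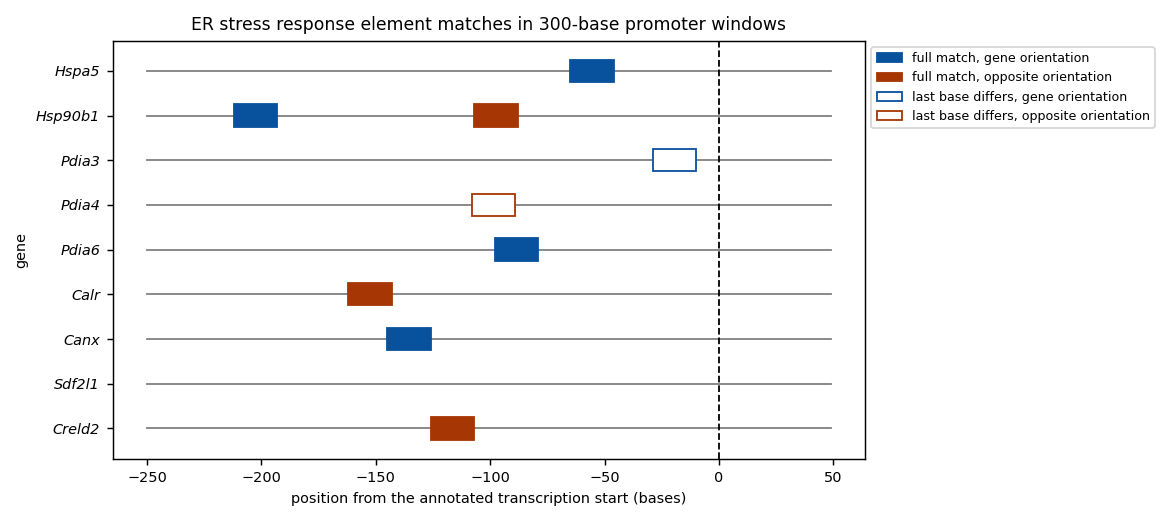
Position of ERSE matches (filled) and of matches that differ in the last base (open) along 9 promoter windows of 300 bases, with the distance from the annotated transcription start in bases on the horizontal axis and genes on the vertical axis; blue matches lie in the orientation of the gene and brown matches in the opposite one. Matches begin between 212 and 29 bases before the start in 8 genes, and Sdf2l1 has none.

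Total counts were between 1038826 and 4902237 in the RPF libraries and between 18758668 and 22994713 in the total RNA libraries, so low-abundance members were counted far less precisely in RPF. Levels are given as CPM, counts scaled to a common library total after TMM scaling. They give the share of a gene among the footprints or the RNA of a library, and not an amount per cell. Each rise or fall below is therefore relative to the other genes. Eif2s1, the gene that was replaced, was present in every library, at 279 to 314 CPM in total RNA, and counts per gene cannot show residue 51. Of 8 keratinocyte markers, 7 or 8 were above 1 CPM in each group. Their summed levels were 10755 to 11329 in S51 vehicle, 13266 to 15478 in S51 bortezomib, 13481 to 13607 in S51A vehicle and 14063 to 15366 in S51A bortezomib. The summed fibroblast, immune and endothelial lists stayed below 8, with Col1a2, Dcn, Lum, Cd3e and Lyz2 at 0. In these lists only Pdgfra (mean 4.31 CPM, highest 6.94) and Cd68 (mean 5.41, highest 7.21) were above 1 CPM. The fibroblast list summed to 2.69 to 3.58 in S51 vehicle, 2.76 to 3.85 in S51 bortezomib, 4.60 to 6.94 in S51A vehicle and 4.18 to 6.20 in S51A bortezomib. A list of secretory or plasma cell markers, of which Sdc1 alone was above 1 CPM, summed to 744 to 782 in S51 vehicle, 450.3 to 493 in S51 bortezomib, 788 to 866 in S51A vehicle and 519.7 to 606 in S51A bortezomib. The part of these marker shifts in the results below was not tested. The RPF library of S51 vehicle replicate 2 stood apart over all genes and not only for members. Its chi-square per gene (genes with at least 10 counts in a pair) was 12.4 and 17.3 against replicates 1 and 3. Other pairs of RPF replicates within a group had 1.64 to 4.77. Eif2s1 had 81.2 CPM of footprints in this library, against 162 and 171 in the other S51 vehicle libraries. Results that rest on this library are given with and without it. Replicate 4 held the highest value for 10 of 10 members in total RNA of S51A vehicle and of S51A bortezomib, for 9 of 10 in S51 bortezomib and for 5 of 10 in S51 vehicle. In footprints it was highest for 8 of 10 members in S51A vehicle, 9 of 10 in S51A bortezomib and 5 of 10 in S51 bortezomib. The footprint library that S51 vehicle lacks is that of replicate 4. Comparisons with S51 vehicle footprints, also where these are set against total RNA, are therefore not balanced for this replicate. The part of this imbalance in the results was not tested by itself.

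Per length of sequence, the members spanned a wide range of footprint density. In S51 vehicle, Calr led at 705 ± 46.7 footprint CPM per kilobase of counted coding sequence (mean ± SD, n = 3), followed by Pdia3 at 475 ± 144, Canx at 462 ± 95.5 and Hspa5 at 351 ± 22.7. Hsp90b1 (247 ± 87.3), Pdia6 (171 ± 6.07), Pdia4 (132 ± 13.2) and Hyou1 (99.8 ± 11.6) stood below them, and Sdf2l1 (51.5 ± 15.1) and Creld2 (30.7 ± 5.98) were lowest. The ranges of Pdia3, Canx and Hspa5 overlapped, as did those of Hsp90b1 and Pdia6, whereas Calr, Pdia4, Hyou1, Sdf2l1 and Creld2 did not overlap their neighbours. In S51 bortezomib, Hspa5 moved from place 4 to place 2, at 1142 ± 172 (n = 4), with a range that overlapped those of Calr (1186 ± 80.1) and Pdia3 (1005 ± 44.0). In S51A bortezomib, Hspa5 had the highest mean of the members at 1369 ± 309, again overlapping Calr at 1344 ± 150.5 and Pdia3 at 1239 ± 51.8. In bulk cultures, a change in the number of cells that express a gene and a change in RNA per cell cannot be told apart.

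**Figure D2:**
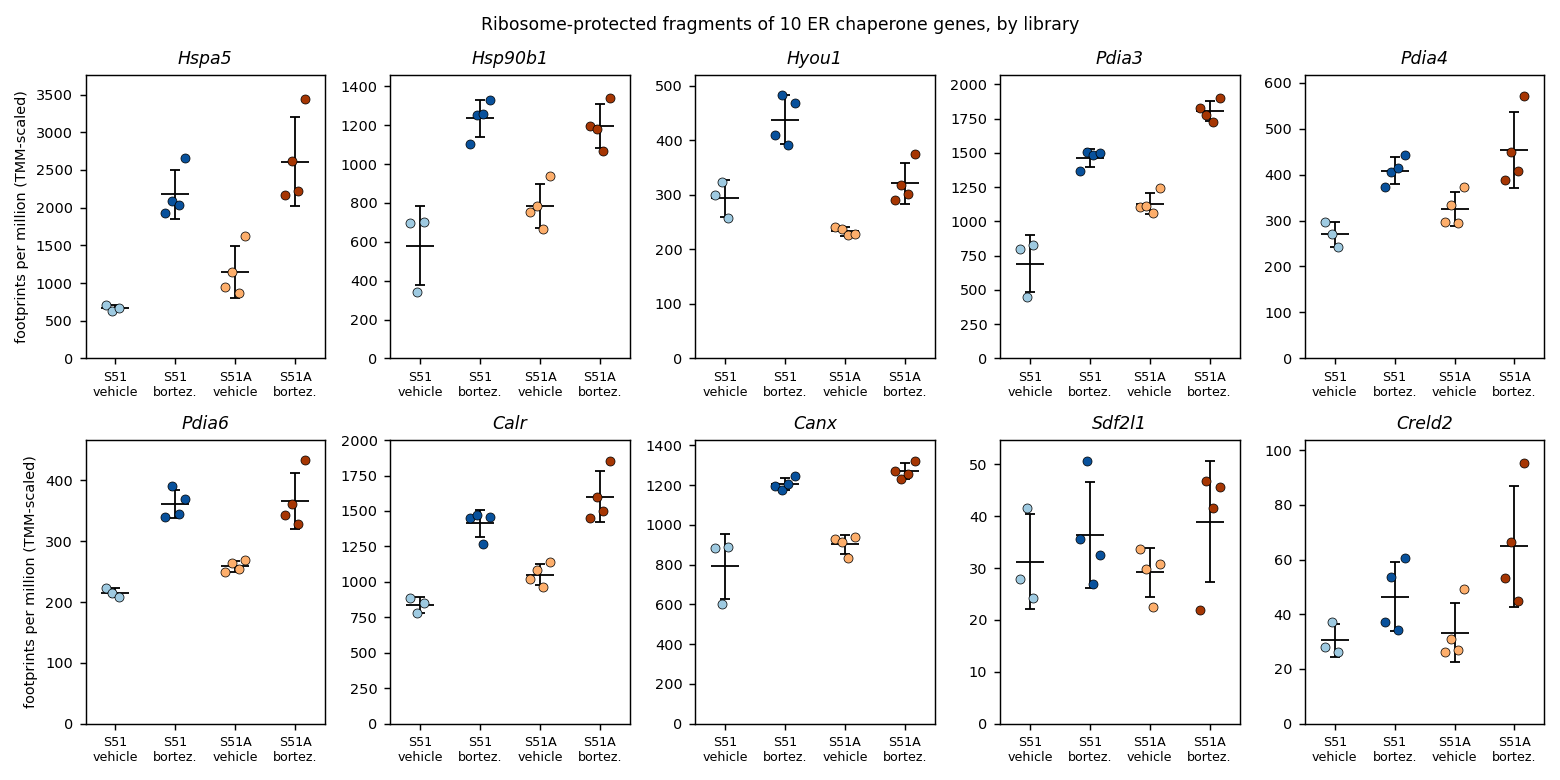
Footprint CPM (vertical axis, linear and from 0) of each member in each RPF library, by group (3 libraries in S51 vehicle, 4 in the others); points are libraries, and bars are the mean ± SD. For 8 members all bortezomib libraries lie above all vehicle libraries of the same genotype, in S51 and in S51A (15.8% and 13.5% of all genes do so), while the groups of Sdf2l1 and Creld2 overlap.

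The response to bortezomib was asked in each genotype, as a change relative to the other genes. The scaling holds the median over all genes near 0, so a shift in all footprints or all RNA cannot be seen. The paper reports lower protein synthesis under bortezomib in S51 cells, and a comparable rate in S51A cells. Whether a relative rise in footprints meant that more protein was made was not tested. In S51 cells, footprints of 8 of 10 members rose (edgeR quasi-likelihood test, Benjamini-Hochberg adjusted p under 0.05 over all genes tested), against 14.8% of all genes tested that were called higher, and 7 rose more than 1.5-fold, against 7.38%. Footprints of 9 of 10 rose in S51A cells, against 9.25% of all genes, and 5 more than 1.5-fold, against 4.19%. Near the 1.5-fold mark lay Pdia4 and Canx in S51 and Calr and Hsp90b1 in S51A, each at 1.52-fold. Each fell under it when 1 library was left out, with lowest log2 values of 0.50, 0.44, 0.53 and 0.54. Hyou1 in S51 was just under it at 1.49-fold, and above it without S51 vehicle replicate 2 (log2 value 0.65). In total RNA, 9 of 10 rose in S51 cells, against 29.7%, with 3 past 1.5-fold, against 5.70%. All 10 rose in total RNA of S51A cells, against 27.5%, with 5 past 1.5-fold, against 4.54%. Hsp90b1 (1.52-fold) and Calr (1.53-fold) in S51A RNA fell under the mark when 1 library was left out, with lowest log2 values of 0.52 and 0.55. Hyou1 (1.47-fold) and Pdia6 (1.44-fold) in S51A RNA and Canx (1.48-fold) in S51 RNA came above it, with highest log2 values of 0.606, 0.591 and 0.586. The median log2 fold change of the members was 0.68 for footprints in S51, 0.55 for footprints in S51A, 0.53 for total RNA in S51 and 0.58 for total RNA in S51A, and the median over all genes tested was -0.0121 to 8.72e-06 in these 4 comparisons. Bortezomib libraries all lay above the vehicle libraries for 8 of 10 members in footprints of each genotype, against 15.8% of all genes in S51 and 13.5% in S51A, and for 9 of 10 in total RNA of each genotype, against 26.8% and 24.3%. With the 2 groups compared fitted alone, the calls over all genes in either direction were 1869 in place of 2910 in S51 footprints and 2856 in place of 1951 in S51A footprints, so the order of the genotypes in their share of called genes was reversed, while 8 and 9 members were called higher as before. Comparisons that share vehicle or bortezomib libraries are not independent of each other. The members were chosen with earlier results of these data known, so the shares of all genes are printed for scale and not as a test.

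Hspa5, which encodes BiP, had the largest response of the members. Its footprints were 715, 628 and 664 CPM in the S51 vehicle libraries and 1927, 2088, 2038 and 2659.5 in S51 bortezomib. In S51A they were 948, 1141, 871 and 1626 with vehicle and 2174, 2615, 2215 and 3446 with bortezomib. Every bortezomib library was above every vehicle library of its genotype, and S51A replicate 4 was the highest of its group under both treatments. The log2 fold change of footprints was 1.70 ± 0.18 (SE) in S51, a 3.26-fold increase (edgeR adjusted p = 3.07e-07), and 1.19 ± 0.16 in S51A, 2.27-fold (edgeR adjusted p = 1.25e-05). Without S51 vehicle replicate 2, the S51 value was 1.66. With the replicate number as a block it was 1.55, and S51 vehicle has no footprint library of replicate 4.

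Total RNA of Hspa5 was 431, 501, 399 and 559.7 CPM in S51 vehicle and 915, 986, 963 and 1243 in S51 bortezomib, without overlap. In S51A it was 572, 646, 538 and 953 with vehicle and 1183, 1605, 1234 and 2073 with bortezomib, again without overlap. The mRNA rose in both genotypes, with log2 fold changes of 1.12 ± 0.16 in S51 (edgeR adjusted p = 1.44e-06) and 1.17 ± 0.16 in S51A (edgeR adjusted p = 8.49e-07). The difference between these responses was -0.051, with a 95% interval of -0.51 to 0.41.

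Hsp90b1 encodes GRP94, the Hsp90 paralogue of the ER lumen, which takes over clients from BiP. Its footprints were 696, 344 and 701 CPM in S51 vehicle and 1101, 1252, 1256 and 1331 in S51 bortezomib, and 752, 784, 666 and 936 with vehicle and 1195, 1182, 1065 and 1341 with bortezomib in S51A. The groups did not overlap in either genotype, but S51 vehicle replicate 2 was low by itself. The log2 fold change was 1.08 ± 0.17 in S51 (edgeR adjusted p = 4.35e-05) and was 0.82 ± 0.094 without that library (edgeR adjusted p = 4.82e-09). In S51A it was 0.61 ± 0.15 (edgeR adjusted p = 0.00596). Total RNA of Hsp90b1 rose by 0.63 and 0.60 on the log2 scale in S51 and S51A, from 509.6, 550.4, 482 and 589 to 794, 818, 797 and 891 CPM in S51 and from 544, 552, 506 and 632 to 756, 896, 749.6 and 996 in S51A.

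Hyou1 encodes GRP170, a large Hsp70-like protein that exchanges nucleotide on BiP. Its footprints were 299, 324 and 257 CPM in S51 vehicle and 409.8, 483, 391 and 468 in S51 bortezomib. The corresponding S51A values were 241, 237, 226 and 227 with vehicle and 290.3, 317, 302 and 374 with bortezomib. Both genotypes rose without overlap, from a lower level in S51A, by 0.58 ± 0.10 and 0.46 ± 0.10 on the log2 scale (edgeR adjusted p = 0.000242 and 0.00125). Total RNA of Hyou1 was 204, 208, 189 and 210.2 CPM in S51 vehicle and 277, 292, 284 and 302 in S51 bortezomib, and 152, 159, 153 and 175 with vehicle and 216, 243, 214 and 268 with bortezomib in S51A. It did not overlap within a genotype and rose by 0.51 in S51 and 0.56 in S51A.

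The 3 protein disulfide isomerases among the members responded in both genotypes. Pdia3 (ERp57) works with calnexin and calreticulin on glycoproteins. Its footprints were 800.2, 451 and 827 CPM in S51 vehicle and 1369, 1506, 1488 and 1497 in S51 bortezomib, and 1107, 1112, 1059 and 1242 with vehicle and 1826, 1774, 1725 and 1902 with bortezomib in S51A. S51 vehicle replicate 2 was again the low library, and no groups within a genotype overlapped. The log2 fold change was 1.08 ± 0.13 in S51 (edgeR adjusted p = 2.88e-06), 0.85 ± 0.071 without that library, and 0.68 ± 0.12 in S51A (edgeR adjusted p = 0.000305). Total RNA of Pdia3 was 394, 394, 378 and 425 CPM in S51 vehicle and 627, 627, 628 and 663 in S51 bortezomib, an increase of 0.68 ± 0.044 on the log2 scale, next to 0.64 ± 0.044 in S51A, where it went from 507, 506, 494 and 558 to 761, 812, 768 and 868.

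Pdia6 (P5) is an isomerase that associates with BiP. It had 223, 215 and 208 CPM of footprints in S51 vehicle and 339.9, 390.2, 345 and 369 in S51 bortezomib, and 249.5, 264, 254 and 269 with vehicle and 342, 361, 329 and 433 with bortezomib in S51A. The groups did not overlap within a genotype, and footprints rose by 0.74 ± 0.10 in S51 and 0.50 ± 0.085 in S51A on the log2 scale (edgeR adjusted p = 3.85e-06 and 0.000179). Total RNA of Pdia6 was 165, 172, 154 and 178 CPM in S51 vehicle and 214, 231, 221 and 237 in S51 bortezomib, and 183, 189, 171 and 195 with vehicle and 241, 285, 231 and 307 with bortezomib in S51A. It rose by 0.43 and 0.53. Pdia4 (ERp72), another luminal isomerase, went from 296, 271 and 242 to 373, 405, 415 and 443 CPM of footprints in S51 and from 296, 334, 295 and 372 to 388, 449.8, 407 and 572 in S51A. It rose by 0.60 ± 0.12 and 0.48 ± 0.11 on the log2 scale (edgeR adjusted p = 0.000755 and 0.00299), with no overlap of groups. Total RNA of Pdia4 was 195, 209, 181 and 208 CPM in S51 vehicle and 243, 257, 242 and 278 in S51 bortezomib, and 209.7, 217, 204 and 244 with vehicle and 275, 321, 269 and 372 with bortezomib in S51A. Replicate 4 was the highest of each of these groups but S51 vehicle, and total RNA rose by 0.36 and 0.50 on the log2 scale.

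Calr (calreticulin, soluble) and Canx (calnexin, membrane-bound) are the lectin chaperones that hold monoglucosylated glycoproteins. Calr had 887, 778 and 852 CPM of footprints in S51 vehicle and 1449.8, 1473, 1269.8 and 1456 in S51 bortezomib, and 1022, 1082, 964 and 1138 with vehicle and 1449.8, 1598, 1501 and 1853 with bortezomib in S51A. All bortezomib libraries were above the vehicle libraries, and the log2 fold change was 0.75 ± 0.091 in S51 and 0.60 ± 0.082 in S51A (edgeR adjusted p = 1.96e-06 and 1.38e-05). Total RNA of Calr was 600.4, 655, 553 and 638 CPM in S51 vehicle and 856, 930.0, 853 and 928 in S51 bortezomib, and 686, 716, 656 and 761 with vehicle and 1014, 1141, 951 and 1204 with bortezomib in S51A. It rose by 0.54 and 0.61. Canx had 883, 603 and 891 CPM of footprints in S51 vehicle and 1196, 1177, 1207 and 1246 in S51 bortezomib, and 928, 912, 832 and 939 with vehicle and 1271, 1230.4, 1258 and 1324 with bortezomib in S51A. Its log2 fold change of footprints was 0.60 ± 0.10 in S51 (edgeR adjusted p = 9.86e-05), 0.44 ± 0.067 and under the 1.5-fold mark without S51 vehicle replicate 2, and 0.49 ± 0.092 in S51A (edgeR adjusted p = 0.000461). Total RNA of Canx was 1057, 1118, 1027 and 1087 CPM in S51 vehicle and 1533, 1591, 1583 and 1645 in S51 bortezomib, and 990.0, 982, 972 and 1035 with vehicle and 1342, 1429, 1345 and 1497 with bortezomib in S51A. It rose by 0.57 and 0.50, with no overlap of groups in either genotype.

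Sdf2l1 and Creld2 were the scarcest members. Sdf2l1, an ER-stress-inducible partner of the DnaJ proteins that serve BiP, had 28.0, 41.6 and 24.1 CPM of footprints in S51 vehicle and 35.7, 50.7, 26.9 and 32.5 in S51 bortezomib. In S51A the values were 33.6, 29.8, 22.4 and 30.8 with vehicle and 21.9, 46.8, 41.6 and 45.7 with bortezomib. The groups overlapped in both genotypes, and neither log2 fold change passed the test, at 0.20 ± 0.25 in S51 and 0.39 ± 0.22 in S51A (edgeR adjusted p = 0.582 and 0.222). In total RNA, Sdf2l1 was 18.7, 17.7, 16.7 and 20.6 CPM in S51A vehicle and 19.1, 26.3, 22.5 and 30.0 in S51A bortezomib, which overlapped and rose by 0.41 on the log2 scale (edgeR adjusted p = 0.00463). In S51 it was 17.6, 17.2, 14.5 and 17.5 with vehicle and 16.7, 19.7, 15.3 and 23.3 with bortezomib, a log2 fold change of 0.17 ± 0.12 that did not pass (edgeR adjusted p = 0.251). The difference between the genotypes was -0.25, with a 95% interval of -0.60 to 0.11 and an edgeR adjusted p of 0.329. Its paralogue Sdf2, which is constitutive, rose in S51A footprints by 0.32 (edgeR adjusted p = 0.0248), but did not pass without S51A vehicle replicate 1 (edgeR adjusted p = 0.0696), and had a log2 value of 0.23 in S51 that did not pass (edgeR adjusted p = 0.15).

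Creld2, a secreted and ER-resident isomerase-like protein, had 28.0, 37.2 and 26.1 CPM of footprints in S51 vehicle and 37.1, 53.6, 34.4 and 60.5 in S51 bortezomib. Its S51A values were 26.2, 30.8, 27.0 and 49.3 with vehicle and 53.2, 66.3, 44.7 and 95.2 with bortezomib. The groups overlapped in both genotypes. Footprints rose in S51A by 0.92 ± 0.22 on the log2 scale (edgeR adjusted p = 0.00505), and the S51 value of 0.61 ± 0.27 did not pass (edgeR adjusted p = 0.0944), but was 0.75 and passed without S51 vehicle replicate 2 (edgeR adjusted p = 0.0198). Total RNA of Creld2 was 37.6, 40.3, 35.1 and 38.0 CPM in S51 vehicle and 48.3, 56.3, 45.7 and 62.3 in S51 bortezomib. In S51A it was 38.3, 42.6, 34.9 and 49.4 with vehicle and 69.6, 82.0, 64.5 and 107 with bortezomib. Neither genotype showed overlap, and the log2 fold change was 0.49 ± 0.12 in S51 and 0.97 ± 0.12 in S51A.

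**Figure D3:**
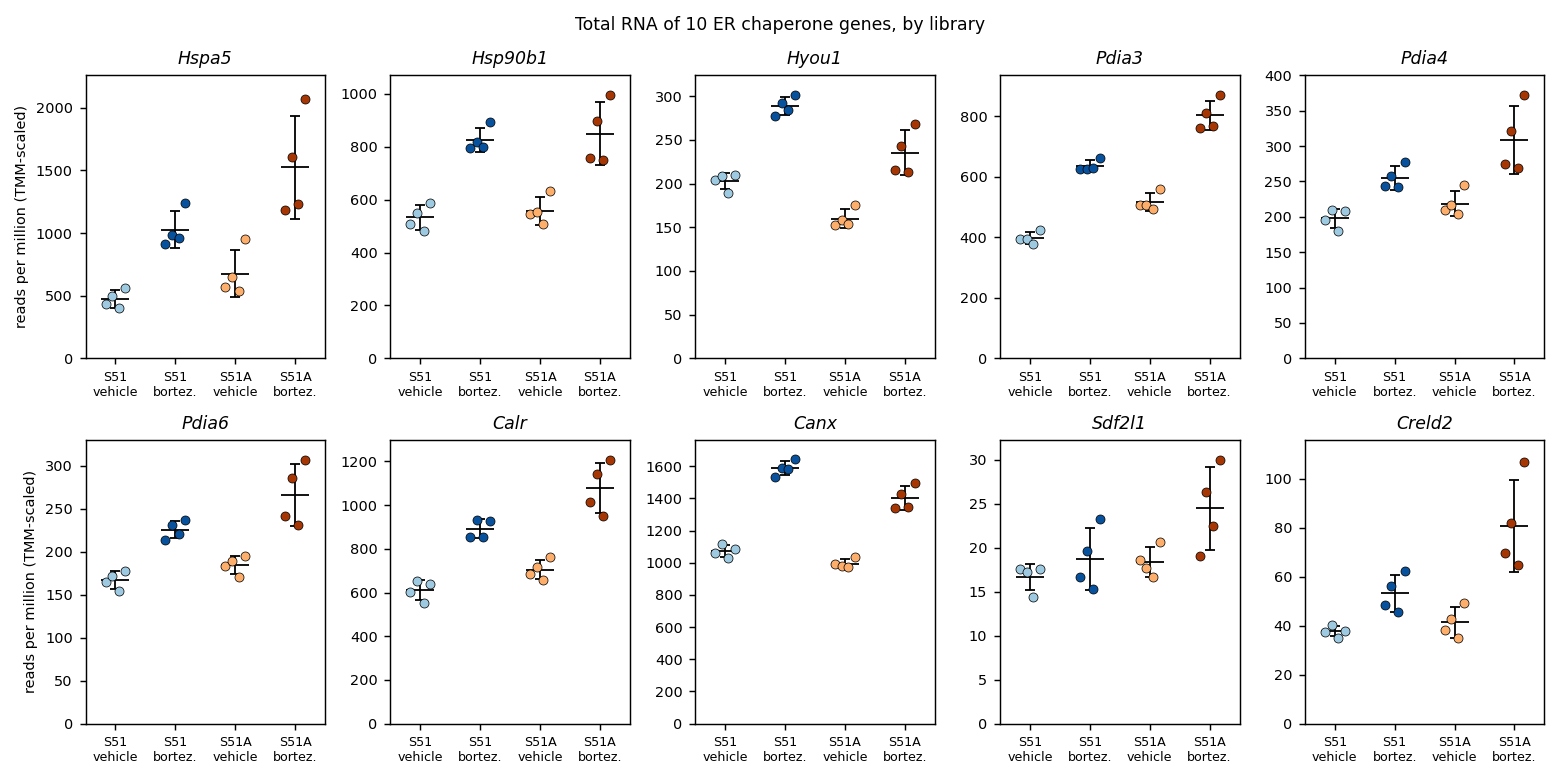
RNA CPM (vertical axis, linear and from 0) of each member in each total RNA library, by group (4 libraries each); points are libraries, and bars are the mean ± SD. Bortezomib libraries lie above the vehicle libraries of the same genotype without overlap for 9 members (26.8% of all genes do so in S51 and 24.3% in S51A), and overlap for Sdf2l1.

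Whether the response to bortezomib differed between S51 and S51A cells was tested as the difference of the log2 fold changes. For footprints, 0 of 10 members passed (edgeR), against 2.35% of all genes called in either direction, with 3 members at an unadjusted p under 0.05 and 0 called by DESeq2. Hspa5 had a difference of 0.52 ± 0.23 (95% interval 0.029 to 1.01, edgeR adjusted p = 0.283), Pdia3 of 0.40 ± 0.18 (95% interval 0.03 to 0.77, edgeR adjusted p = 0.273) and Hsp90b1 of 0.48 ± 0.22 (95% interval 0.014 to 0.94, edgeR adjusted p = 0.298). Without S51 vehicle replicate 2 these differences were 0.48, 0.17 and 0.22. The difference of Hspa5 was 0.30 without S51A vehicle replicate 4 (edgeR adjusted p = 0.535). Differences of 8 of 10 members were above 0, meaning a larger response in S51, against 51.4% of all genes. Their median was 0.13, but the difference of Canx was -0.049 without S51 vehicle replicate 2. For total RNA, 0 of 10 passed (edgeR), against 21.6% of all genes, with 1 member at an unadjusted p under 0.05 and 0 called by DESeq2. That member was Creld2, whose response was smaller in S51 by 0.47 on the log2 scale (a difference of -0.47 ± 0.17, edgeR adjusted p = 0.0503), and it passed when any of 4 libraries was left out in turn (S51 bortezomib replicate 4, S51A vehicle replicate 4 or S51A bortezomib replicates 1 or 3), with adjusted p from 0.0159 to 0.0275. It was -0.31 without S51A bortezomib replicate 4 (edgeR adjusted p = 0.116), and DESeq2 gave an adjusted p of 0.126.

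**Figure D4:**
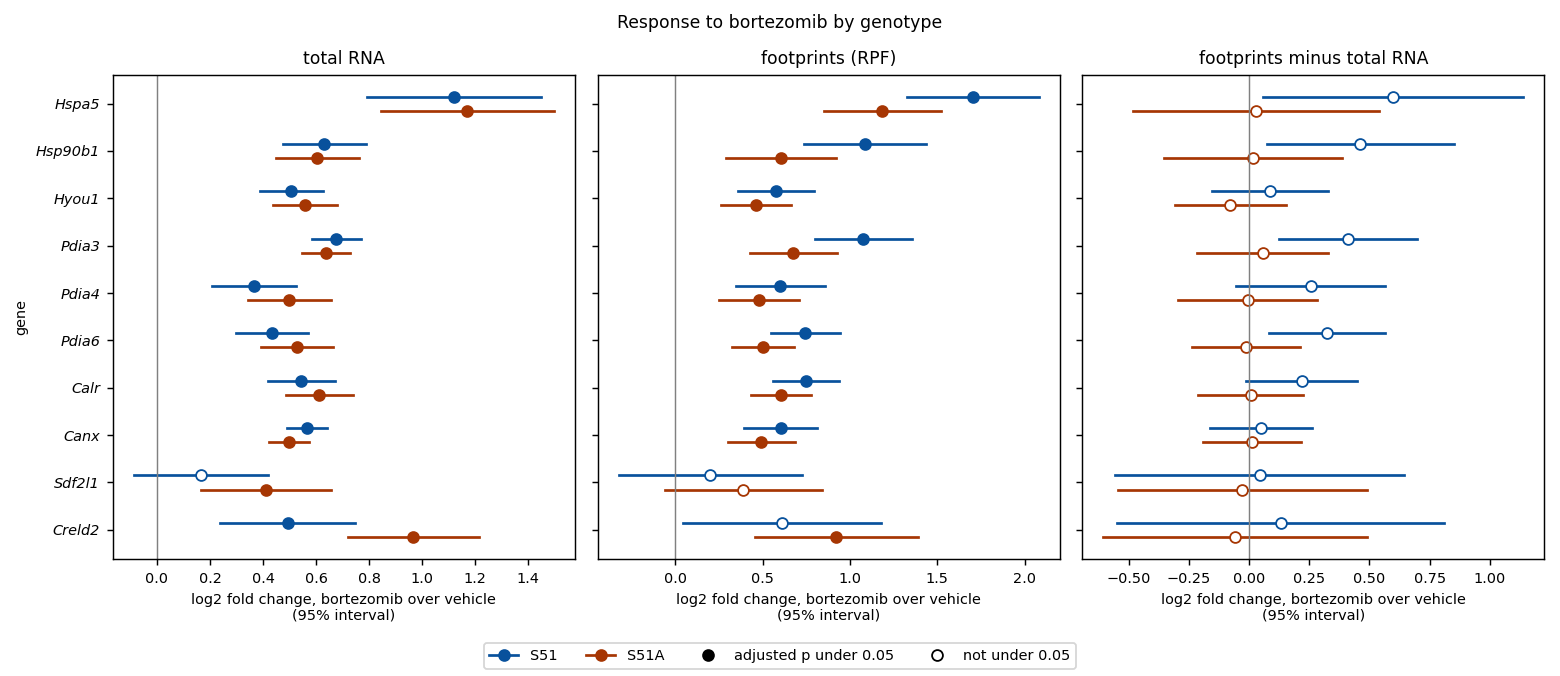
Log2 fold change of bortezomib over vehicle with its 95% interval (horizontal axis) for each member (vertical axis) in total RNA, in footprints and in the difference of both, in S51 (blue) and S51A (brown); filled points have an edgeR adjusted p under 0.05. Intervals of S51 and S51A overlap for all 10 members in each panel, and the difference of footprints and total RNA passed for no member in either genotype.

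Footprints per unit of RNA (translational efficiency) were tested as footprint minus total RNA log2 fold change. Both parts are scaled, so this measure too is relative to the other genes. In S51 cells all 10 members had a value above 0, against 51.7% of all genes, with a median of 0.24 against 0.013 over all genes. Of the members 0 of 10 passed (edgeR), against 9.43% of all genes called in either direction and 254 of 9424 called higher. The value was below 0 in at least 1 alternative for 4 members, with lowest values of -0.16 for Sdf2l1, -0.14 for Canx, -0.057 for Creld2 and -0.024 for Hyou1. An unadjusted p under 0.05 was reached by 4 members, and DESeq2 called 1, Pdia3, with 1238 of 9424 genes called in either direction. The edgeR values were 0.60 ± 0.27 for Hspa5 (adjusted p = 0.16), 0.46 ± 0.19 for Hsp90b1 (adjusted p = 0.126), 0.41 ± 0.14 for Pdia3 (adjusted p = 0.0611) and 0.32 ± 0.12 for Pdia6 (adjusted p = 0.0787). In S51A cells 5 of 10 were above 0, against 50.8% of all genes, and the median was 0.00059. With edgeR or DESeq2 0 of 10 passed, against 1.24% of all genes with edgeR, and 0 members had an unadjusted p under 0.05. For the difference between genotypes, 0 of 10 passed with edgeR or DESeq2, against 1.74% of all genes, with 1 member at an unadjusted p under 0.05.

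Because the RPF and the total RNA library of a replicate were prepared from the same lysate, the ratio was also taken within each of the 15 lysates with both libraries. The ratio of footprint CPM to RNA CPM for Hspa5 was 1.66, 1.25 and 1.67 in S51 vehicle and 2.11, 2.12, 2.12 and 2.14 in S51 bortezomib. It was 1.66, 1.77, 1.62 and 1.71 in S51A vehicle and 1.84, 1.63, 1.79 and 1.66 in S51A bortezomib. The 4 S51 bortezomib lysates lay within 0.034 of each other and above all 11 others, which 1.15% of all genes did, and the other 3 groups overlapped. With the lysate as a block, Hspa5 and Pdia6 passed in S51, at 0.50 ± 0.088 (edgeR adjusted p = 0.000626) and 0.29 ± 0.083 (edgeR adjusted p = 0.0367). Over all genes, 599 of 9425 were called in either direction in this fit, and 26.4% of these calls were higher. The RPF and RNA libraries of the 3 S51 vehicle lysates had correlations of deviations of -0.056, -0.0067 and 0.047 and each RPF library was most like the RNA library of another lysate, whereas all but S51 bortezomib replicate 4 of the other lysates matched their own best, so the pairing that this block uses was not visible in the S51 vehicle group. Hspa5 and Pdia6 passed as well when the lysate of S51 vehicle replicate 2 was left out, an alternative chosen after seeing the data. Their values were then 0.37 and 0.26 (edgeR adjusted p = 3.34e-05 and 0.0286). In that fit 803 of 9562 genes were called in either direction, 31.6% of them higher.

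In S51A the same blocked fit gave Hspa5 a value of 0.05 ± 0.081 that did not pass. The difference between genotypes for Hspa5 was 0.45 ± 0.12 and did not pass (edgeR adjusted p = 0.0822), with 91 of 9425 genes called. It was 0.32 ± 0.086 and passed without the lysate of S51 vehicle replicate 2 (edgeR adjusted p = 0.0235). In that fit 299 of 9562 genes were called in either direction, 15.4% of them higher. The ratios of Pdia6 were 1.35, 1.25 and 1.35 in S51 vehicle and 1.59, 1.69, 1.56 and 1.56 in S51 bortezomib, again above all 11 other lysates. In S51A they were 1.36, 1.40, 1.49 and 1.38 with vehicle and 1.42, 1.27, 1.42 and 1.41 with bortezomib, which overlapped. The S51 values of Hsp90b1 and Pdia3 rested largely on S51 vehicle replicate 2, where the ratio of Hsp90b1 was 0.625 against 1.37 and 1.45 in the other S51 vehicle lysates; without it the blocked values were 0.11 and 0.15 in place of 0.47 and 0.43. Canx went from 0.835, 0.540 and 0.868 in S51 vehicle to 0.780, 0.740, 0.763 and 0.757 in S51 bortezomib, where the groups overlapped.

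Pdia4 was the third of 3 members whose S51 bortezomib lysates lay above those with vehicle, as for 5.60% of all genes, from 1.52, 1.30 and 1.34 to 1.53, 1.57, 1.72 and 1.59, but the S51A lysates reached into the same range, at 1.41, 1.54, 1.45 and 1.52 with vehicle and 1.41, 1.40, 1.51 and 1.54 with bortezomib. The blocked value of Pdia4 in S51 was 0.23 ± 0.085 (edgeR adjusted p = 0.122). Hyou1 had ratios of 1.46, 1.56 and 1.36 in S51 vehicle and 1.48, 1.66, 1.38 and 1.55 in S51 bortezomib, and Calr of 1.48, 1.19 and 1.54 with vehicle and 1.69, 1.58, 1.49 and 1.57 with bortezomib, and both overlapped.

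**Figure D5:**
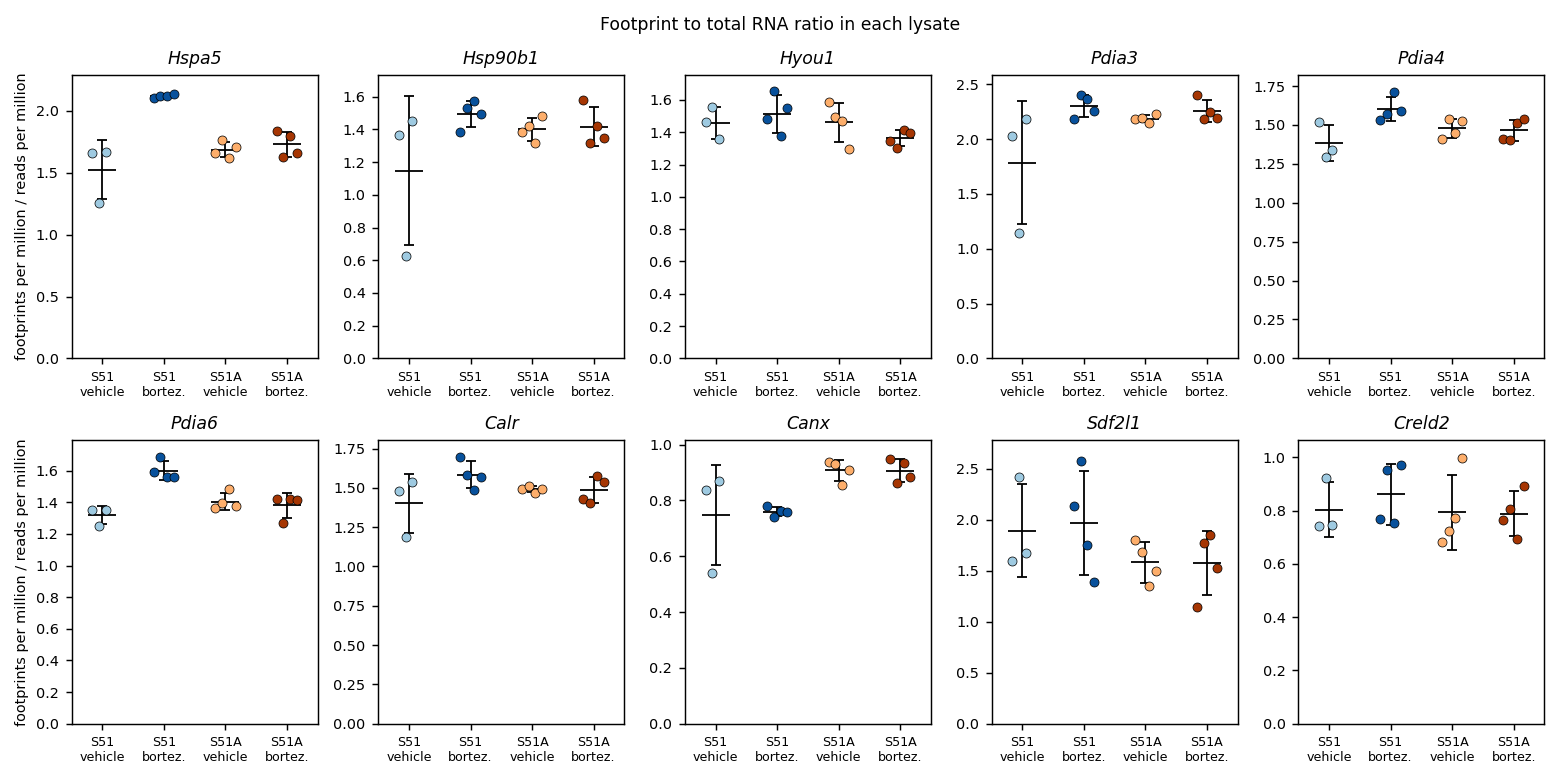
Ratio of footprint CPM to RNA CPM (vertical axis, linear and from 0) in each lysate with both libraries, by group (3 lysates in S51 vehicle, 4 in the others); points are lysates, and bars are the mean ± SD. For Hspa5 the 4 S51 bortezomib lysates lie between 2.11 and 2.14, above all others, and S51 vehicle replicate 2 is low for Hsp90b1, Pdia3 and Canx.

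The genotypes also differed without drug. Footprints of 5 of 10 members differed between S51A vehicle and S51 vehicle, against 28.6% of all genes called in either direction. Hspa5 was higher in S51A by 0.78 ± 0.18 on the log2 scale (edgeR adjusted p = 0.0021), Pdia3 by 0.70 ± 0.13 (adjusted p = 0.00044; 0.47 without S51 vehicle replicate 2), Calr by 0.33 and Pdia6 by 0.27, and Hyou1 was lower, at -0.33 ± 0.10 (adjusted p = 0.0192). Without S51A vehicle replicate 4, the Hspa5 value was 0.56 and still passed (edgeR adjusted p = 0.00911). S51 vehicle has no footprint library of that replicate number. The call of Pdia6 was lost in 5 of the 7 fits that left out a library of these groups, and that of Hyou1 without S51 vehicle replicate 1 (edgeR adjusted p = 0.0554). In total RNA 5 of 10 differed, against 63.8% of all genes: Hspa5 by 0.52, Pdia3 by 0.38 and Calr by 0.20 were higher in S51A, and Hyou1 at -0.35 and Canx at -0.11 were lower. Hspa5 no longer passed without S51A vehicle replicate 4 (log2 value 0.31, edgeR adjusted p = 0.0585), nor Canx without S51 vehicle replicate 2 (edgeR adjusted p = 0.0552).

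Under bortezomib, footprints of 1 of 10 members differed between S51 and S51A, against 31.5% of all genes in either direction. That member was Hyou1, higher in S51 by 0.44 ± 0.10 on the log2 scale (edgeR adjusted p = 0.00124). Total RNA of 9 of 10 differed, against 65.7% of all genes. The values of 7 were lower in S51 bortezomib than in S51A bortezomib, from -0.61 for Creld2 and -0.57 for Hspa5 to -0.39 for Sdf2l1, -0.33 for Pdia3, -0.28 for Pdia4, -0.27 for Calr and -0.24 for Pdia6. Hyou1 at 0.29 and Canx at 0.18 were higher in S51; both were also lower in S51A with vehicle. Footprints of Hspa5 and Pdia3 had log2 values of -0.26 ± 0.16 and -0.30 ± 0.12 in the same comparison and did not pass (edgeR adjusted p = 0.223 and 0.0614). With only these groups fitted, 5 members passed, with Hspa5, Pdia3, Calr and Creld2 added as lower in S51. In that fit 3564 of 8790 genes were called in either direction.

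Across libraries, the pattern of Hspa5 was most like that of Pdia4, Calr and Pdia6 among the members, with a Pearson r of log2 CPM of 0.982, 0.980 and 0.979 over 16 total RNA libraries and of 0.965, 0.979 and 0.967 over 15 RPF libraries. The lowest values among the members belonged to Hyou1 (0.599), Canx (0.758) and Sdf2l1 (0.819) in total RNA and to Sdf2l1 (0.418) and Hyou1 (0.565) in RPF. Among genes outside the list, the highest r in RPF belonged to Manf (0.983), 2310057M21Rik (0.956), Clu (0.955), Sec23a (0.951) and Atp2a2 (0.944). In total RNA it belonged to Zfp9 (0.977), Ints8 (0.975), Manf (0.973), Yipf5 (0.971) and Selenos (0.969). These values describe libraries that share treatments and genotypes.

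The members were set beside other genes of ER folding and of the stress responses, whose counts stand against the 14.8% of all genes called higher in S51 footprints and the 9.25% in S51A. Of 11 other members of the disulfide isomerase family tested in footprints, 2 rose and 1 fell in S51, from 0.47 for P4hb, the founding isomerase, to -0.51 for Erp29. Of 7 ER J-domain proteins and exchange factors, which drive the BiP cycle, 4 rose, from 1.24 for Dnajb9 (ERdj4), with Sil1 lowest at -0.33 (edgeR adjusted p = 0.0967). Of 6 other genes of the glycoprotein folding cycle, 3 rose and 1 fell, with Uggt1, the glucosyltransferase that returns misfolded glycoproteins to the lectins, at 0.58 and Mogs, the glucosidase that starts trimming, at -0.99. Of 4 oxidation genes 2 rose (Qsox1 highest at 0.62), and of 5 prolyl isomerases and collagen chaperones only Serpinh1 (HSP47) rose, by 0.51, with Fkbp9 lowest at -0.10. Without S51 vehicle replicate 3, neither Qsox1 (edgeR adjusted p = 0.0802) nor Serpinh1 (0.36, edgeR adjusted p = 0.111) passed, and with the groups compared fitted alone the counts were 2 of 7 for the J-domain list, 1 of 3 for oxidation and 0 of 5 for the prolyl isomerases. In S51A the counts called higher were 1 of 11, 3 of 7, 3 of 6, 1 of 4 and 1 of 5.

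Of 5 secreted and small ER stress genes, 4 rose in each genotype, among them Manf by 1.03 in S51 and 0.90 in S51A and Dnajb9 by 1.20 in S51A. Herpud1, an adaptor of ER-associated degradation, rose by 0.96 in S51 and had 0.18 in S51A, where it did not pass, and the difference did not pass either (edgeR adjusted p = 0.302). Of the 5 sensors and factors, 2 rose in each genotype, with Xbp1 at 1.35 and 0.68 and a difference of 0.67 that did not pass (edgeR adjusted p = 0.168), and Atf6b lowest in S51 at -0.17 (edgeR adjusted p = 0.43). The list of PERK and ATF4 genes had another pattern. All 6 rose in S51 footprints, from Asns at 0.19 to Ddit3 at 2.94, while 0 rose and 1 fell in S51A, and the difference passed for 4 of 6, among them Atf4 at 1.40 (edgeR adjusted p = 4.15e-05) and Ddit3 at 2.42 (edgeR adjusted p = 0.00735), against 0 of 10 ER chaperones. Asns did not pass in S51 without S51 vehicle replicate 2 (edgeR adjusted p = 0.107), and 5 of 6 passed without a filter beyond 1 count, with the replicate block and with the groups compared fitted alone. In S51A, Atf4 and Ddit3 had log2 values of 0.055 and 0.52 that did not pass. Cytosolic heat shock chaperones rose in 8 of 8 in both genotypes, with Hsp90ab1 lowest at 0.34 in S51, and Hspa1b rose by 4.96 in S51 and 4.49 in S51A. Hspa1a had the highest value in S51, but it and Hspa1b are near-identical copies, and the split of their reads is uncertain.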

How the data were processed

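Ribosome profiling and total RNA libraries came from the same lysates of S51 and S51A squamous carcinoma cells given vehicle or bortezomib. The deposited files hold raw counts per gene: per the methods, reads were aligned to mm10 with bowtie2, and the authors counted footprints of 20 to 23 or 26 to 32 nt with plastid in coding sequences without the first 15 and last 5 codons. The submitters' processing notes name Bowtie2, featureCounts and DESeq2. A strand setting was not given in the sources used here. Sample titles had been exchanged, by a note on the record, and columns were mapped by that note. Gene names came from RefSeq for 20687 footprint and 24569 RNA identifiers. Counts were filtered with filterByExpr, scaled by TMM and tested with the quasi-likelihood test of edgeR 4.0.16 (limma 3.58.1, R 4.3.3), with the 4 groups in 1 fit per assay. Translational efficiency was the interaction of assay and treatment over 31 libraries. Genes with a Benjamini-Hochberg adjusted p under 0.05 were called, and 1.5-fold was marked beside. The default edgeR fits of footprints, total RNA and translational efficiency were tested on simulated data.

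Levels are CPM from TMM-scaled library sizes, and levels per kilobase divide by the counted coding length for footprints. Named genes were all members, the highest and lowest of each pathway list in S51 footprints, and the genes outside the members most alike to Hspa5. The paralogue Sdf2 and the reference genes Atf4, Ddit3, Xbp1, Hspa1b, Dnajb9 and Herpud1 were picked by name. Alternatives were DESeq2 1.42.0, RLE size factors, library sizes alone, other filters, a replicate block, a lysate block, fits of only the groups compared, and each library left out in turn. Replicate numbers were not taken to pair libraries across groups, since the labels give no shared batch and not every same-numbered pair had a correlation of deviations over 0.1. Footprint and RNA libraries of 1 lysate share cells by the methods, with correlations from -0.056 to 0.35 over 15 lysates, all 3 of S51 vehicle being under 0.05. Depth was 1038826 to 4902237 footprint counts and 18758668 to 22994713 RNA counts per library. The members and lists were chosen with earlier results of these data known. Marker lists are described by their sums. No protein sequences were used here.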

Additional observations from a re-analysis of the deposited data

Results flagged for a closer look

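In groups of 4 libraries, a lowest or highest library that stood apart from the others by Dixon's ratio was found in 5 of 100 groups of member values (5%), where chance alone gives about 1 in 20. In total RNA, S51 bortezomib replicate 4 was highest for Pdia3, at 663 CPM against 627 to 628 in the others, and S51 vehicle replicate 3 was lowest for Sdf2l1, at 14.5 against 17.2 to 17.6. In footprints, S51 bortezomib replicate 1 was lowest for Pdia3, at 1369 CPM against 1488 to 1506, and S51 bortezomib replicate 3 was lowest for Calr, at 1269.8 against 1449.8 to 1473. For the ratio of footprints to RNA, S51A bortezomib replicate 2 was lowest for Pdia6, at 1.27 against 1.41 to 1.42. The low S51 vehicle replicate 2 of the footprint libraries lies in a group of 3, to which this comparison was not applied.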

How the results depend on the processing

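Among values of single members and other named genes, 681 comparisons with another setting kept their direction and side of the threshold, 24 came to pass and 11 no longer passed, and of the fits that left out a library 948 kept both, 14 came to pass, 23 no longer passed and 14 crossed 0. Same-numbered RNA libraries of different groups had correlations of deviations of 0.0021 to 0.19 (8 of 24 over 0.1), against -0.17 to 0.099 for different numbers (0 of 72 over 0.1), and a library was most like its own number in 42 of 48 cases; in footprints 3 of 21 same-numbered pairs were over 0.1, against 7 of 63, and 19 of 42 cases. This is a hint from the data, not from the design. The genes called in either direction are given beside each count of members that follows. The replicate block gave 3 in place of 1 member called for footprints of S51 against S51A under bortezomib (adding Hspa5 and Creld2, 3047 of 9457 genes). It gave 1 in place of 0 for the genotype difference of the RNA response (Creld2, 3348 of 11708 genes). For translational efficiency in S51 it gave 2 in place of 0 (Hspa5 and Pdia6, 970 of 9424 genes). For the footprints under bortezomib, fits without a filter beyond 1 count gave 3 members (adding Pdia3 and Creld2, 2933 of 13322 genes). A filter of 10 counts gave 2 (adding Pdia3, 2490 of 7369 genes). The groups compared alone gave 5 (adding Hspa5, Pdia3, Calr and Creld2, 3564 of 8790 genes). Each added call was lower in S51. For the genotype difference in RNA, library sizes alone (2722 of 11708 genes) and no filter beyond 1 count (2477 of 17691 genes) gave 1 each. Leaving out libraries gave 0 to 1 (2097 to 2537 genes). For translational efficiency in S51, DESeq2 gave 1 (1238 of 9424 genes), library sizes alone 4 (1599 of 9424 genes) and the lysate block 2 (599 of 9425 genes). The lysate block without S51 vehicle replicate 2 (chosen after seeing the data) gave 2 (803 of 9562 genes). Leaving out libraries gave 0 to 2 (590 to 1595 genes), with Hsp90b1 and Pdia3 called without footprint library S51 vehicle 1 or 3. For the genotype difference in efficiency, the lysate block without S51 vehicle replicate 2 gave 1 (299 of 9562 genes).

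Among the values of single genes printed in the text, those that crossed 0 when a library was left out included Sdf2l1 (-0.0025 to 0.41) and Atf6b (-0.37 to 0.098) for S51 footprints. They also included Atf4 (-0.0073 to 0.16) and Herpud1 (-0.014 to 0.41) for S51A footprints, and Hspa5 (-0.18 to 0.25) for efficiency in S51A. The Canx footprint difference (lowest -0.049) and S51 efficiency of Sdf2l1 (lowest -0.16), Creld2 (lowest -0.057) and Hyou1 (lowest -0.024) were further cases. The difference between genotypes of the Hspa5 RNA response also crossed 0 (-0.26 to 0.13). None of these values passed the test in the reported fit. Over all 13 comparisons, 27 of 130 member values crossed 0 under some alternative, and 0 of these had passed. The cause was not tested. Sdf2l1 footprints in S51A passed without S51A bortezomib replicate 1 (0.61, edgeR adjusted p = 0.0313).

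Over all genes, calls moved from 2910 to 1869 for S51 footprints and from 1951 to 2856 for S51A footprints with the groups compared alone. They ranged from 120 to 482 around 222 for the footprint difference between genotypes and from 590 to 1595 around 889 for efficiency in S51 when libraries were left out, with 1599 by library sizes alone. For the genotype difference in efficiency, 164 calls became 334 with DESeq2, 91 with the lysate block and 112 to 369 without 1 library. Library sizes alone moved the median of all genes by -0.16 and -0.13 for RNA in S51 and S51A and by 0.16 for efficiency in S51, and the share of calls that were higher from 49.6% to 26%, from 48.8% to 27.7% and from 28.6% to 75.2%; under that scaling the share for the RNA difference went from 55.6% to 39.8%, for the footprint difference from 44.1% to 54.7%, for efficiency in S51A from 8.55% to 21.7% and for its difference from 12.8% to 31.7%.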

Other observations

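Some promoters of other folding and stress genes held a searched element. The ERSE was in Dnajc3, the BiP co-chaperone p58IPK, 1 of 6 J-domain and exchange genes with a window, and in no other list. ERSE-II was in Dnajb11 (1 of 6 in that list) and in Herpud1 (1 of 6 secreted and small ER stress genes), and Herpud1 also held the looser ERSE. The unfolded protein response element was in Txndc5 (1 of 10 other isomerases), and the heat shock element in Hsph1 (1 of 5 cytosolic heat shock chaperones). The core of the CEBP-ATF element, which 3.97% of all windows held, was in Trib3, Chac1 and Asns, genes known as ATF4 targets (3 of 6 in the PERK and ATF4 list). It was also in Txndc5 (1 of 10), Cdnf and Herpud1 (2 of 6). These are descriptions of letters in promoter windows.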
